A study of Mus musculus with 16 samples.

Results

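The collagens described here are those of basement membranes, of beaded filaments and of the smaller network and fibril-associated types: Col4a1, Col4a2, Col4a5, Col6a1, Col6a2, Col6a3, Col8a1, Col14a1, Col15a1 and Col18a1. They were found by the gene name that the scanner files give each probe, and each was followed in 4 groups of mouse liver. Of these 10 genes, 9 had a probe and all 9 could be tested, among 24357 genes tested in all. No probe carried the name Col6a3, which was not analysed here.

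RNA of whole liver was hybridized to 16 Agilent 1-colour arrays of 60-base probes. All mice were males of the inbred strain BALB/c, 6 to 8 weeks of age when treatment began. The mice were wild type (WT) or lacked Lcn2 in the whole body (Lcn2-/-), the gene of lipocalin 2, a secreted protein that binds bacterial iron carriers. CCl4, which becomes toxic in hepatocytes and causes fibrosis when given repeatedly, was injected 2 times a week for 4 weeks at 0.5 ml/kg in corn oil, and mice were killed 48 h after their last injection. The groups were WT control (n = 4), Lcn2-/- control (n = 3), WT CCl4 (n = 5) and Lcn2-/- CCl4 (n = 4), and the control mice of both genotypes received corn oil for the same 4 weeks. The knockout had been made on a mixed 129 and C57BL/6 background and was backcrossed to BALB/c. The study's text calls the WT mice littermates.

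Collagen IV is the network-forming collagen of basement membranes. Its chains join in fixed combinations: the chains of Col4a1 and Col4a2 form the widespread network, whereas the chain of Col4a5 is built into networks with those of Col4a3 and Col4a4 or of Col4a6. The liver sinusoid normally has no continuous basement membrane, and the deposition of one along it is a known feature of fibrosis. Collagen VI makes beaded filaments at the border of basement membranes and interstitial matrix, from chains that include those of Col6a1, Col6a2 and Col6a3. Col8a1 encodes a short-chain collagen of vessel walls, Col14a1 a collagen that coats fibrils, and Col15a1 and Col18a1 the multiplexins, basement membrane collagens of which the latter releases endostatin and is made in quantity by hepatocytes.

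The promoters of the collagen IV genes are shown first, because these genes lie head to head in pairs and the pairs moved differently. In the RefSeq table (build GRCm38.p6), which gives a window of 300 bases around each start site, 9 of the 10 genes had a window, 11 windows in all; Col14a1 had none. The Col4a1 and Col4a2 starts lie on opposite strands of chromosome 8, 21 bases apart, so that their windows share 78 bases. The Col4a2 window, chr8:11312555-11312854 on the plus strand, is printed with the shared bases in capitals:
Col4a2: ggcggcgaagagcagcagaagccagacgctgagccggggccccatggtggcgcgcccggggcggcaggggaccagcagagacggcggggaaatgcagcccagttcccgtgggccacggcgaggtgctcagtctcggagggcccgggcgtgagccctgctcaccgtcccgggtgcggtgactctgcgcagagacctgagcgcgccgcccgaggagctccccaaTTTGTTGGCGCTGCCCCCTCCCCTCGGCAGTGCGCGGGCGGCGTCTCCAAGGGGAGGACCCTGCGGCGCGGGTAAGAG

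Col4a5 and Col4a6 are also divergent, on chromosome X, but their starts are 1343 bases apart and their windows do not meet. Col4a5 and Col6a1 had the largest WT response of their collagen type in the main fit. Col6a1 and Col6a2 were close there (log2 2.71 and 2.69), and with the slide as a block Col6a2 was ahead (2.54 and 3.01). The Col4a5 window (chrX:141475169-141475468, plus strand) and that of Col6a1 (chr10:76725995-76726294, minus strand) are printed with the motifs that a search found in capitals:
Col4a5: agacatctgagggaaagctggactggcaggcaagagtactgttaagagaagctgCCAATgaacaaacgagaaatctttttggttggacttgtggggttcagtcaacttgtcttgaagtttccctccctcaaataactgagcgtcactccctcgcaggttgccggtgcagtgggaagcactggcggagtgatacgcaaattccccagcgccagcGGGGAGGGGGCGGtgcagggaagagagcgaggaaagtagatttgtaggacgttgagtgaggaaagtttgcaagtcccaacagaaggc
Col6a1: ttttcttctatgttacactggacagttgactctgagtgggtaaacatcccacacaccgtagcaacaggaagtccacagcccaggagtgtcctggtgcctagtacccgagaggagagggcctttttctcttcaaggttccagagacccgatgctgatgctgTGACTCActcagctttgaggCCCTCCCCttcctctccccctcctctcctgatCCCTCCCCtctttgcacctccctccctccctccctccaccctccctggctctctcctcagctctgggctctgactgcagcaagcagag

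The windows were searched on both strands for several short motifs. The GC box GGGCGG was in 7 of the 11 windows (6 of 9 genes), against 35.7% of all 32851 windows of this length. CCAAT was in 4 windows (4 genes), against 37.4%. The C-rich run CCCTCCCC was in 7 windows (6 genes), against 10.8% of all windows. In the bases that Col4a1 and Col4a2 share lie 1 copy of it and 1 GC box, each counted for both windows. In the Col4a5 window its copy on the minus strand overlaps the GC box. The TATA box TATAAA was in no window of these genes, against 13.6% of all, and the AP-1 site TGACTCA was in that of Col6a1 alone, against 5.2%. These matches describe the letters of the windows and were not tested for binding.

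Values below are log2 normalized signals of the brightest probe of each gene, which can be compared between mice for a gene but not between genes. A difference was called when limma's adjusted p, over all 24357 genes, was under 0.05. After CCl4, 7 of the 9 collagens rose in WT liver, against 8.01% of all genes called higher in this comparison (16.8% called in either direction). In Lcn2-/- liver 6 of the 9 rose, against 6.57% of all genes called higher (12.2% in either direction). The median log2 response of the 9 genes was 1.21 in WT and 1.39 in Lcn2-/- mice, beside medians of -0.032 and -0.023 over all genes. The WT CCl4 and WT control mice did not overlap, with the CCl4 mice higher, for 5 of the 9 genes (8.03% of all genes), and the Lcn2-/- groups did not for 7 (12.1%). In whole liver, more cells that make a transcript and more of the transcript per cell cannot be told apart.

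The position of the arrays bears on all of these responses. Slide 1 held every control array and WT CCl4 1, and slide 2 the other CCl4 arrays, each slide being 1 scan session, so only WT CCl4 1 separates the slide from CCl4. With the slide as a block, 3 of the 9 genes were called in WT (5.35% of all genes) and the same 3, Col4a5, Col6a1 and Col6a2, in Lcn2-/- mice (1.74%).

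**Figure D1:**
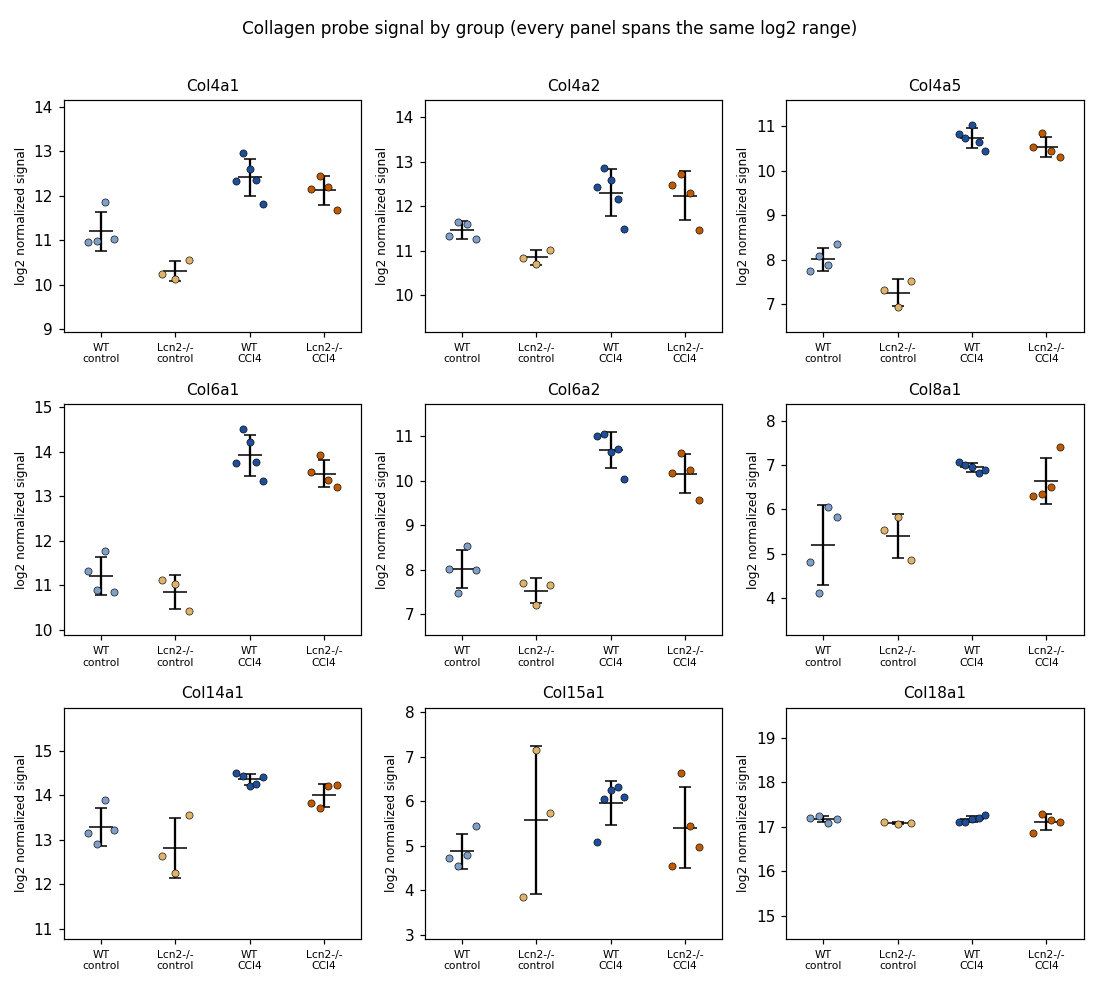
Log2 normalized signal of the 9 collagens by group; each point is 1 mouse, the bar is the mean and the whiskers the SD (n = 4, 3, 5 and 4 from left to right). Col4a5, Col6a1 and Col6a2 show the widest gaps between control and CCl4 mice, Col18a1 is level across the groups, and 1 Lcn2-/- control lies at 7.15 for Col15a1.

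Among the collagen IV chains, Col4a5 rose the most. Its probe (chrX:138123547-138123606 on mm9, the build of the array files) gave 7.74, 8.08, 7.88 and 8.34 in the WT control mice and 10.83, 10.74, 11.02, 10.64 and 10.43 in the WT CCl4 mice. The Lcn2-/- control mice had 7.32, 6.94 and 7.52 and the Lcn2-/- CCl4 mice 10.53, 10.86, 10.44 and 10.31. Neither pair of groups overlapped, and the gap between control and CCl4 mice was wider than the range within any group. The log2 difference was 2.72 ± 0.17 (SE), 6.58-fold, in WT mice (adjusted p = 6.35e-07) and 3.27 ± 0.19, 9.66-fold, in Lcn2-/- mice (adjusted p = 2.98e-07). With the slide as a block the log2 differences were 2.82 (adjusted p = 0.000275) and 3.40 (adjusted p = 0.000578). These block values rest on WT CCl4 1, the only CCl4 mouse on slide 1, which stood 2.82 above the WT control mean.

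Col4a1 rose less. Its probe, spotted 10 times on each array (chr8:11199009-11199068), gave 10.95, 10.98, 11.85 and 11.03 in WT control mice and 12.34, 12.96, 12.59, 12.35 and 11.82 in WT CCl4 mice. Lcn2-/- control mice had 10.24, 10.12 and 10.56, and Lcn2-/- CCl4 mice 12.14, 12.44, 12.20 and 11.68. The WT groups overlapped by a small margin through WT control 3, which stood above its 3 group mates, while the Lcn2-/- groups were apart. The response was 2.31-fold in WT mice (log2 1.21 ± 0.24, adjusted p = 0.00308) and 3.51-fold in Lcn2-/- mice (log2 1.81 ± 0.27, adjusted p = 0.000681). Blocking on the slide gave 1.14 (adjusted p = 0.135) and 1.72 (adjusted p = 0.103).

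Col4a2, the partner chain, followed with a response that was smaller again (chr8:11448840-11448899). WT control mice had 11.32, 11.65, 11.60 and 11.26 and WT CCl4 mice 12.44, 12.86, 12.58, 12.15 and 11.48. The Lcn2-/- control mice had 10.83, 10.69 and 11.01 and the Lcn2-/- CCl4 mice 12.46, 12.72, 12.29 and 11.45. The lowest WT CCl4 mouse, replicate 5, lay among the WT controls, and the Lcn2-/- groups did not overlap. The WT difference of 0.84 ± 0.27 (1.79-fold) was close to the threshold, with an adjusted p of 0.0463 that passed it no longer in 13 of the 16 fits that left out 1 array, and the Lcn2-/- difference was 1.39 ± 0.31 (2.61-fold, adjusted p = 0.00896). Blocking on the slide, the difference was 0.98 (adjusted p = 0.254) in WT and 1.56 (adjusted p = 0.195) in Lcn2-/- mice.

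Col4a6 is not among the 10 genes and is given because it is the divergent neighbour of Col4a5, and its level fell. WT control mice had 9.73, 9.61, 9.04 and 9.39 and WT CCl4 mice 8.87, 8.46, 8.58, 8.44 and 8.77. Lcn2-/- control mice had 9.48, 9.77 and 9.44 and Lcn2-/- CCl4 mice 8.27, 8.59, 8.66 and 8.98. The CCl4 mice were below the controls without overlap in both genotypes. Col4a6 fell by 0.82 on the log2 scale in WT (1.76-fold, adjusted p = 0.00393) and by 0.94 in Lcn2-/- mice (1.92-fold, adjusted p = 0.00509). Across all the processing alternatives the fall ranged from 0.57 to 1.01 in WT and from 0.64 to 1.06 in Lcn2-/- mice, and the call was lost with the slide as a block (adjusted p = 0.262 in WT and 0.382 in Lcn2-/- mice) and, in WT, on slide 1 alone (adjusted p = 0.280, 1 CCl4 mouse). A second probe for Col4a6 did not rise well above background in any mouse.

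**Figure D2:**
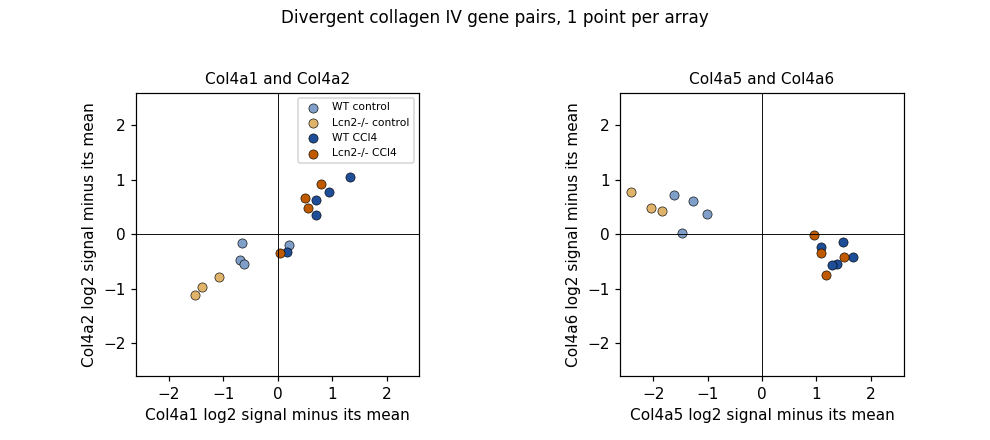
Log2 signal of each gene minus its own mean over the 16 arrays, for the 2 divergent collagen IV pairs; each point is 1 mouse, coloured by group. Col4a1 and Col4a2 rise along the diagonal together, while the CCl4 mice lie at high Col4a5 and low Col4a6.

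The signal ratio of chains of 1 collagen type was formed within each array, for the 4 pairs that Col4a1, Col4a2 and Col4a5 and Col6a1 and Col6a2 give, in each of the 4 two-group comparisons, and tested by the exact two-sided permutation test over mice. The Col4a1 over Col4a5 log2 ratio ranged from 2.69 to 3.97 in WT control and from 1.39 to 2.22 in WT CCl4 mice, and it dropped by 1.51 (exact permutation p = 0.00794, adjusted p = 0.0635 over the 16 tests). In Lcn2-/- mice it ranged from 2.92 to 3.18 in controls and from 1.37 to 1.77 after CCl4, lower by 1.46 (exact permutation p = 0.0286, adjusted p = 0.114). The Col4a2 over Col4a5 ratio was lower by 1.88 in WT (exact permutation p = 0.00794, adjusted p = 0.0635) and by 1.89 in Lcn2-/- mice (exact permutation p = 0.0286, adjusted p = 0.114). These p-values are the smallest that 126 and 35 splits of the mice allow, the groups did not overlap in any of the 4 cases, and none passed the adjustment. The ratio of Col4a1 to Col4a2 differed by 0.37 in WT (exact permutation p = 0.0952) and by 0.43 in Lcn2-/- mice (exact permutation p = 0.0571), and the ratio of Col6a1 to Col6a2 by 0.023 (exact permutation p = 0.913) and 0.025 (exact permutation p = 0.943). The 8 genotype comparisons of the ratios had exact permutation p between 0.175 and 0.829.

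**Figure D3:**
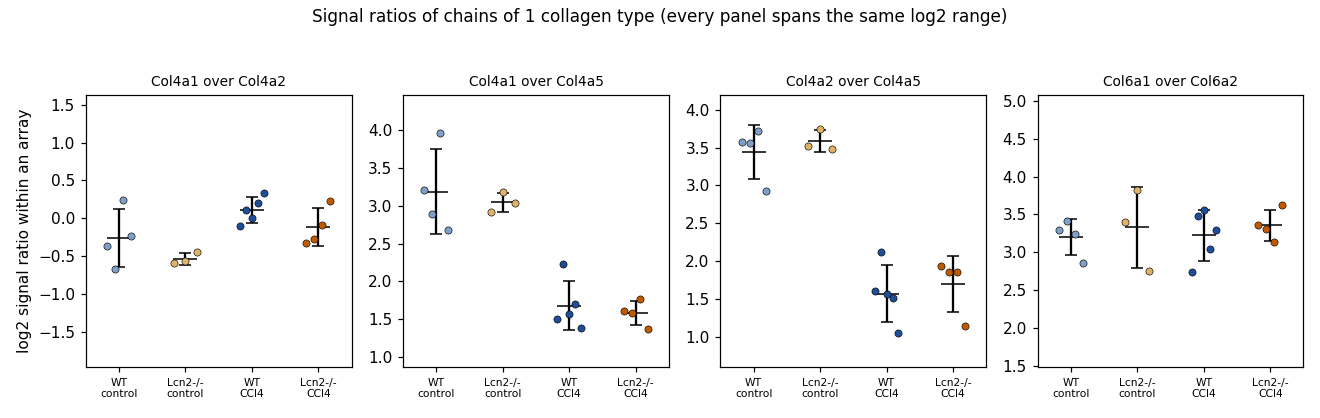
Log2 signal ratio of 2 chains of 1 collagen type within each array; points are mice, bars the mean and whiskers the SD (n = 4, 3, 5 and 4). Both ratios over Col4a5 are lower after CCl4 in both genotypes without overlap, whereas the Col6a1 over Col6a2 ratio sits near 3.2 to 3.4 on average in every group. The height of a ratio depends on the probes and has no meaning of its own.

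The beaded-filament chains rose to nearly the same extent as each other. Col6a1 (probe at chr10:76171538-76171597) had 11.31, 10.89, 11.77 and 10.85 in WT control mice and 13.75, 14.52, 14.21, 13.76 and 13.34 in WT CCl4 mice. In Lcn2-/- mice it had 11.11, 11.03 and 10.42 in controls and 13.54, 13.92, 13.37 and 13.20 after CCl4. Control and CCl4 mice were apart in both genotypes by more than the range within any group. The response was 6.54-fold in WT (log2 2.71 ± 0.26, adjusted p = 1.34e-05) and 6.30-fold in Lcn2-/- mice (log2 2.66 ± 0.29, adjusted p = 6.38e-05). The slide block gave 2.54 (adjusted p = 0.00623) and 2.45 (adjusted p = 0.0357).

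Col6a2 (chr10:76058931-76058990), which lies near Col6a1 on chromosome 10 on the same strand, had 8.02, 7.48, 8.53 and 8.0 in WT control and 11.01, 11.04, 10.65, 10.72 and 10.04 in WT CCl4 mice. The Lcn2-/- control mice had 7.71, 7.20 and 7.66 and the Lcn2-/- CCl4 mice 10.18, 10.62, 10.24 and 9.57. Again no CCl4 mouse reached down to a control. Col6a2 was 6.44-fold higher after CCl4 in WT (95% interval 4.40 to 9.42, adjusted p = 1.35e-05) and 6.19-fold higher in Lcn2-/- mice (4.02 to 9.55, adjusted p = 6.44e-05). In the slide block fit the log2 differences were 3.01 (adjusted p = 0.00193) and 3.03 (adjusted p = 0.0102).

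Col8a1 was dim in uninjured liver. Its probe (chr16:57624471-57624530) was well above background on 2 of 4 WT control and 1 of 3 Lcn2-/- control arrays, and on all 9 CCl4 arrays. WT control mice had 4.81, 4.13, 6.05 and 5.84, and WT CCl4 mice the narrow range of 7.08, 7.0, 6.95, 6.81 and 6.89. Lcn2-/- control mice had 5.54, 5.82 and 4.85, and Lcn2-/- CCl4 mice 6.30, 6.35, 6.51 and 7.41. The groups did not overlap in either genotype. Col8a1 rose 3.33-fold in WT (log2 1.74 ± 0.35, adjusted p = 0.00362), and the Lcn2-/- difference of 1.23 ± 0.40 missed the threshold (adjusted p = 0.0591) and passed it without WT control 2 (adjusted p = 0.0249) or WT control 3 (adjusted p = 0.0387), and with array weights (0.99, adjusted p = 0.0236). Both of these control mice enter the fit through the shared spread. With the slide as a block the difference was 1.87 (adjusted p = 0.0972) in WT and 1.40 (adjusted p = 0.381) in Lcn2-/- mice. The Lcn2-/- difference also did not pass with the slide row (1.23, adjusted p = 0.0712) or the replicate number (1.10, adjusted p = 0.127) as a block. Folds against such dim control signals carry the error of the background.

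Col14a1, the fibril-associated member, was measured by a pair of probes that could be compared. The brighter one (chr15:55352264-55352323), which sits in the first row of the array, had 13.16, 12.90, 13.88 and 13.22 in WT control and 14.49, 14.44, 14.20, 14.25 and 14.40 in WT CCl4 mice. Lcn2-/- control mice had 12.64, 12.24 and 13.54, and Lcn2-/- CCl4 mice 13.83, 13.72, 14.21 and 14.22. The CCl4 mice were above all controls of their genotype, and WT control 3 and Lcn2-/- control 3 were the highest of their groups. The response was 2.09-fold in WT (adjusted p = 0.00744) and 2.27-fold in Lcn2-/- mice (adjusted p = 0.0112), and with the slide as a block it was 1.20 (adjusted p = 0.116) and 1.35 (adjusted p = 0.203) on the log2 scale. Without Lcn2-/- control 1 the Lcn2-/- response was 1.10 (adjusted p = 0.0558), and without Lcn2-/- control 2 it was 0.90 (adjusted p = 0.0712), against 1.19 with all arrays.

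The second Col14a1 probe (chr15:55347733-55347792) lies in the collagenous part of the coding sequence and is shown with the third probe of Col15a1 (chr4:47283786-47283845), which does too. Capitals mark the glycine codons of the open reading frame, found by a search for a frame with no stop codon and at least 6 of them. In Col15a1 all 6 recur at a step of 3 codons, the glycine repeat of the collagen triple helix, and in Col14a1, with 7 glycine codons, 5 of the steps between them are of 3 codons and 1 is not:
Col14a1: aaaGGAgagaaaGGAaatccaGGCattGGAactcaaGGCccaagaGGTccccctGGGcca
Col15a1: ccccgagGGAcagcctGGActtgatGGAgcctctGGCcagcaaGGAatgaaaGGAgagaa

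On the coding Col14a1 probe, WT control mice had 9.29, 9.09, 9.79 and 9.77 and WT CCl4 mice 11.03, 10.63, 10.30, 10.53 and 10.17. Lcn2-/- control mice had 9.15, 8.41 and 9.76 and Lcn2-/- CCl4 mice 10.82, 10.57, 10.72 and 10.03. These groups did not overlap either. The log2 responses, fitted over the 33014 probes that passed the filter, were 1.05 ± 0.27 (adjusted p = 0.0167) and 1.43 ± 0.30 (adjusted p = 0.00755), so that both probes of Col14a1 rose in both genotypes. The probes' difference between genotypes under CCl4 was -0.36 ± 0.24 on the brighter and 0.0047 ± 0.27 on the coding one, neither of which passed the test.

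Col15a1 was at the edge of detection. Of its 3 probes, the one used (chr4:47325273-47325332) was well above background on 8 of 16 arrays, and the others on 6 and 5; the first and second share 48 of their 60 bases. The probe used gave 4.73, 4.55, 4.79 and 5.45 in WT control and 5.09, 6.04, 6.25, 6.32 and 6.09 in WT CCl4 mice. In Lcn2-/- mice it gave 3.86, 7.15 and 5.73 in controls and 4.55, 6.65, 5.45 and 4.98 after CCl4. The WT groups overlapped through WT CCl4 1, and the Lcn2-/- CCl4 mice lay within the range of their controls. The WT difference of 1.08 ± 0.55 (adjusted p = 0.203) and the Lcn2-/- difference of -0.18 ± 0.63 (adjusted p = 0.890) did not pass the test. Fitted with only the WT groups, the WT difference passed (adjusted p = 0.0307), and its exact permutation p was 0.0238. The 95% interval in Lcn2-/- mice, from -1.52 to 1.17, leaves a rise or a fall of more than 2-fold possible. With the slide as a block, which rests on WT CCl4 1, the difference was 0.21 (adjusted p = 0.922) in WT and -1.27 (adjusted p = 0.611) in Lcn2-/- mice. Lcn2-/- control 2, at 7.15 on this probe, read 3.46 on the overlapping one and was not well above background there. On that overlapping probe the Lcn2-/- mice read 3.02, 3.46 and 3.32 in controls and 4.12, 5.28, 4.69 and 4.41 after CCl4. These groups did not overlap, and the difference was 1.36 ± 0.65 (adjusted p = 0.205), of opposite sign to that of the probe used, though 1 of these 7 arrays was well above background. In WT mice it was 1.33 ± 0.57 (adjusted p = 0.137).

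Col18a1 did not pass the test in any comparison. Its probe at chr10:76515790-76515849 ranged from 17.08 to 17.24 in WT control mice and from 17.10 to 17.26 in WT CCl4 mice, and from 17.06 to 17.11 and 16.85 to 17.30 in the Lcn2-/- groups. All 4 groups overlapped. The log2 difference after CCl4 was -0.0075 in WT, with a 95% interval from -0.21 to 0.19, and 0.018 in Lcn2-/- mice, from -0.21 to 0.24. The second Col18a1 probe gave -0.058 ± 0.13 and -0.053 ± 0.15. The number of saturated spots on these arrays was 0. Of 8 hepatocyte markers, all well above background on every array, 0 were called higher and 0 lower by limma in either response, and 2 in WT and 0 in Lcn2-/- mice had an unadjusted p under 0.05, against 30.7% and 27.0% of all genes.

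Lcn2-/- and WT mice were then compared under CCl4, which asks whether levels in injured liver differ between the genotypes. None of the 9 collagens passed the test (0 called, against 0.636% of all genes; the count at an unadjusted p under 0.05 in limma was also 0, where 13.7% of all genes had one). By the exact permutation test Col14a1 alone had an unadjusted p under 0.05 (p = 0.0238), with groups that overlapped. All 9 estimates were below 0, with a median of -0.30, while 49.998% of all genes were below 0 and their median was 2.06e-05. No collagen separated the 2 groups with Lcn2-/- mice lower, against 3.26% of all genes. The largest difference relative to its error was that of Col6a2, -0.54 ± 0.26, with a 95% interval from -1.09 to 0.0077 (adjusted p = 0.370). For Col4a5 the interval was -0.55 to 0.16, for Col6a1 -0.96 to 0.14, for Col4a1 -0.81 to 0.22 and for Col4a2 -0.65 to 0.51. Within slide 2, where both groups lay on 1 slide, the estimates remained below 0 for all 9. WT CCl4 2 to 5 and Lcn2-/- CCl4 1 to 4 shared the columns of that slide. The tests and intervals given here did not pair them, and pairing by column, described with the processing, was not tested. The Lcn2-/- CCl4 arrays all lay in the lower row of their slide and WT CCl4 2 to 5 in the upper row. With the row as a block, which rests on WT CCl4 1, 7 of 9 estimates were below 0. Apart from WT CCl4 1, genotype and row of the slide cannot be told apart. The median genotype difference under CCl4 was -0.36 over the 9 fibrillar collagens, of which 0 were called. The summed log2 level of the 7 portal fibroblast markers was 13.12 to 13.73 in Lcn2-/- CCl4 and 13.90 to 14.41 in WT CCl4 mice, without overlap. The part of these genes' shift in the 9 estimates was not tested.

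**Figure D4:**
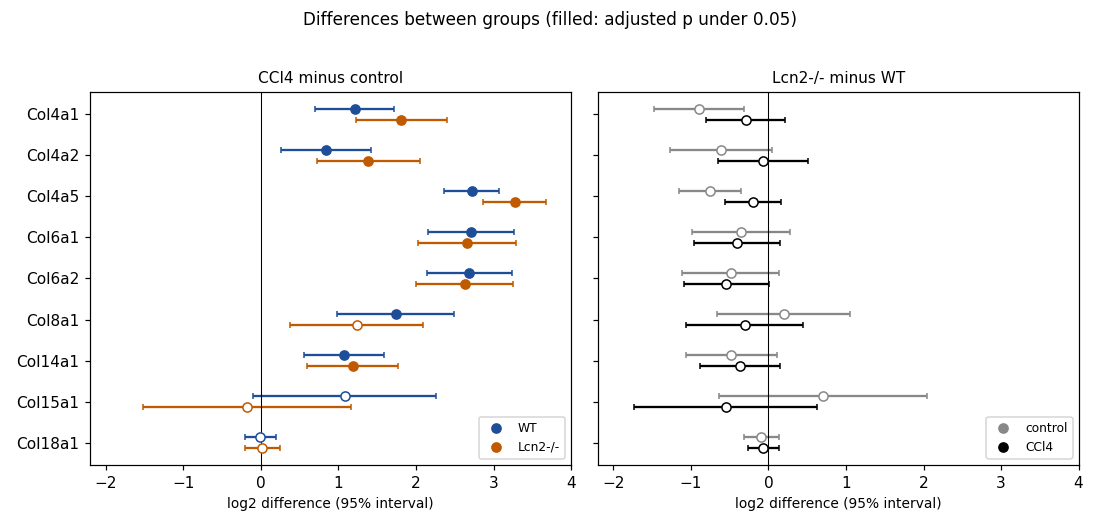
Log2 differences with 95% intervals from the limma fit: CCl4 minus control in each genotype at left, Lcn2-/- minus WT in each treatment at right; filled points passed at an adjusted p under 0.05. Filled points occur only at left, for 7 collagens in WT and 6 in Lcn2-/- mice, and the largest is Col4a5 in both.

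In the control mice, Col4a1, Col4a2 and Col4a5 were lower in Lcn2-/- than in WT liver by estimate, although none passed the test, while the estimates of the other tested collagen IV chains were above 0 (Col4a4 0.43 and Col4a6 0.13). Of the 9 collagens, 7 had estimates below 0, with a median of -0.48, beside 52.0% of all genes and a median of -0.010. Among them were Col6a2 and Col14a1 (-0.48 each) and Col6a1 (-0.36). The number called was 0 of 9, against 0.53% of all genes, and 2 of the 9, Col4a1 and Col4a5, had an unadjusted p under 0.05 in limma, as did 8.30% of all genes. For Col4a1, Col4a2 and Col4a5 every Lcn2-/- control mouse was below every WT control mouse, and the other 6 collagens overlapped; 5.42% of all genes separated the groups this way. Col4a5 was lower by 0.75 ± 0.19 (1.69-fold, 95% interval 1.27 to 2.23, adjusted p = 0.119). Col4a1 was lower by 0.90 ± 0.27 (1.86-fold, 95% interval 1.24 to 2.79, adjusted p = 0.233) and Col4a2 by 0.62 ± 0.31 (adjusted p = 0.660). The exact permutation p of each was 0.0286, the smallest that 35 splits allow. Neither this test nor the main limma fit kept the control arrays in pairs by slide column, which were taken as pairs in the processing. With arrays weighted by their quality, Col4a1 and Col4a5 passed (adjusted p = 0.0178 and 0.0179), when 5.21% of all genes did. All WT control arrays lay in the upper and all Lcn2-/- control arrays in the lower row of slide 1, and with the row as a block the 3 chains were lower by 0.81, 0.79 and 0.88 with adjusted p of 0.983, 0.993 and 0.696. The part of the row in these values was not tested further. Other matrix genes and portal fibroblast markers had estimates of that size or larger in the same comparison, none of which passed the limma test: the log2 difference was -1.71 for Col1a1 (adjusted p = 0.229), -1.24 for Col3a1 (0.202), -1.03 for Col12a1 (0.291) and -1.09 for the elastin gene Eln (0.0740). The median difference was -0.44 over the 9 fibrillar collagens and -0.81 over the 7 portal fibroblast markers, beside -0.010 over all genes, and the summed level of those markers did not overlap between the control groups. Their part in the Col4a1, Col4a2 and Col4a5 differences was not tested.

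The interaction, by how much the response in Lcn2-/- mice exceeded that in WT mice, was called for 0 of the 9 collagens (0.0534% of all genes). Col4a5 alone had an unadjusted p under 0.05 in limma, as did 3.33% of all genes, and its adjusted p was 1.00. The estimates were 0.60 ± 0.36 for Col4a1, 0.54 ± 0.41 for Col4a2 and 0.55 ± 0.25 for Col4a5, and below 0 for the other tested collagen IV chains, -0.50 ± 0.47 for Col4a4 and -0.12 ± 0.25 for Col4a6. Among the collagen VI chains they were -0.054 ± 0.39 for Col6a1, -0.056 ± 0.39 for Col6a2 and -0.39 ± 0.55 for Col6a5. The larger Lcn2-/- response of Col4a1, Col4a2 and Col4a5 is thus not shown to differ from the WT response.

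Within groups, several of the collagens deviated from their group means together. Over the 16 arrays, Pearson's r of the deviations was 0.84 for Col4a1 with Col6a2, 0.81 for Col4a1 with Col4a2, 0.73 for Col4a1 with Col6a1, 0.73 for Col4a2 with Col6a2 and 0.66 for Col6a1 with Col6a2. Col4a5 had an r of 0.59 with Col4a2 and of 0.068 with Col6a1, and Col8a1 an r of -0.36 with Col4a2. Both members of a pair come from 1 array each time and share its RNA, labelling and normalization, so these are descriptions. WT CCl4 5 had the lowest and WT CCl4 2 the highest Col4a1 and Col6a1 in the WT CCl4 group, and Lcn2-/- CCl4 4 and Lcn2-/- CCl4 2 did in theirs.

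**Figure D5:**
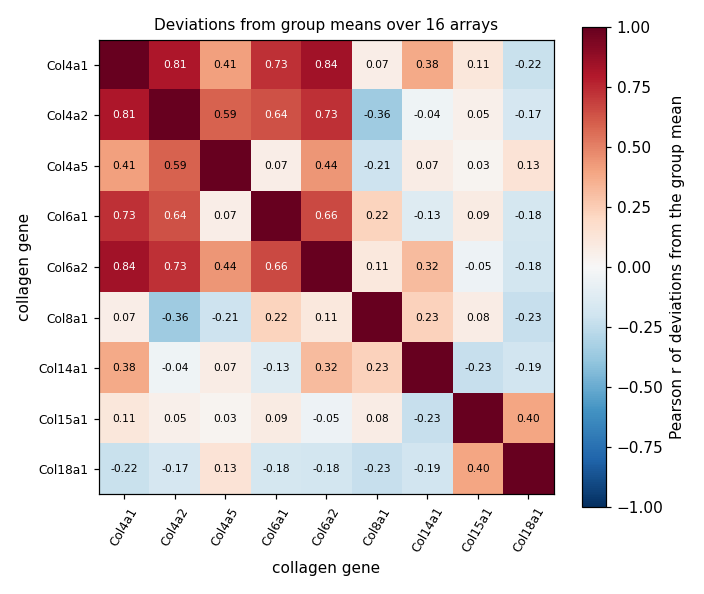
Pearson's r between the collagens' deviations from their group means over 16 arrays, with blue for negative and red for positive values. Col4a1, Col4a2, Col6a1 and Col6a2 form a block with r from 0.64 to 0.84, and Col18a1 has values between -0.23 and 0.40 with the others.

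The genes whose profile over the 16 arrays was most like the mean standardized profile of the 9 collagens were Cd34, an antigen of vascular endothelium and fibroblasts (r = 0.987), Fzd2, a Wnt receptor (r = 0.985), Ak1, an adenylate kinase (r = 0.983), Eps8, an actin regulator (r = 0.983), and B3gnt9 (r = 0.982). The profile follows the 4 groups, so any gene with a like response scores high.

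Other collagens and the proteins that bind these were counted from lists, against 8.01% of all genes called higher and 8.8% lower in WT and 6.57% higher and 5.61% lower in Lcn2-/- mice. Of the 13 other non-fibrillar collagens tested, 5 rose and 1 fell in WT and 3 rose and 1 fell in Lcn2-/- mice, with median log2 responses of 0.53 and 0.23. Col6a5, a further collagen VI chain, was 5.95-fold higher in WT and 4.53-fold higher in Lcn2-/- mice (limma, adjusted p = 0.000262 and 0.00349), the fibril-associated Col12a1 3.88-fold and 4.73-fold, and Col16a1, of the same family, 3.84-fold and 3.82-fold. Col8a2, the partner chain of Col8a1, rose 4.83-fold in WT (limma, adjusted p = 0.0246) and was 1.71-fold higher in Lcn2-/- mice without passing (adjusted p = 0.528). Col7a1, the anchoring fibril collagen, rose 2.73-fold in WT (adjusted p = 0.000313) and was 1.18-fold higher in Lcn2-/- mice without passing (adjusted p = 0.554), and the interaction was not called for either gene (adjusted p = 1.00 and 0.913). Of the 9 fibrillar collagens, 5 and 4 rose and none fell, with medians of 1.43 and 1.42. Col1a1, the main chain of scar collagen, rose 11.2-fold and 18.5-fold, Col1a2 7.43-fold and 7.88-fold and Col3a1 6.22-fold and 9.17-fold, beside 6.58-fold and 9.66-fold for Col4a5.

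Of the 17 partners of collagen IV in basement membranes, read against the same shares of all genes, 8 rose and 1 fell in WT, and 10 rose and none fell in Lcn2-/- mice, with medians of 0.50 and 0.78. The laminin chain Lama2 rose 4.48-fold and 4.36-fold and Lamb1 2.21-fold and 2.57-fold, and Sparc, which binds collagen IV, 2.67-fold and 2.44-fold. Lamc3, another laminin chain, rose 3.33-fold in Lcn2-/- mice (limma, adjusted p = 0.00986) and was 1.68-fold higher in WT without passing (adjusted p = 0.156), with an interaction that was not called. Nid1, the nidogen that links laminin to collagen IV, rose 2.05-fold and 2.44-fold. Lama3 fell by 1.27 on the log2 scale in WT (limma, adjusted p = 0.00107). Its Lcn2-/- difference of -0.56 did not pass (adjusted p = 0.162), and the interaction of 0.71 was not called (adjusted p = 1.00). Of the 11 matrix receptors listed, 6 rose in WT and 4 in Lcn2-/- mice and none fell, with medians of 0.76 and 0.84. Which collagens each of them binds was not examined here. Ddr1, a collagen receptor kinase of epithelia, rose 5.78-fold and 7.58-fold, Itga11 4.04-fold and 3.30-fold, and Antxr1, which binds collagen VI, 3.49-fold and 3.13-fold. Between genotypes, no gene of these 4 lists passed the test in limma, under CCl4 or in controls. Unadjusted p-values under 0.05, which 13.7% of all genes had under CCl4 and 8.30% in controls, numbered 3 under CCl4 and 2 in controls among the other non-fibrillar collagens, 3 and 4 among the fibrillar ones, 4 and 4 among the partners and 4 and 1 among the receptors.

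Markers of liver cell types were counted beside the collagens, against 8.01% of all genes called higher and 8.8% lower in WT and 6.57% higher and 5.61% lower in Lcn2-/- mice. Of 7 portal fibroblast markers 5 rose and none fell in each genotype, and their summed log2 level ranged from 12.18 to 13.26 in WT control, 11.63 to 12.01 in Lcn2-/- control, 13.90 to 14.41 in WT CCl4 and 13.12 to 13.73 in Lcn2-/- CCl4 mice. Of 8 markers of quiescent stellate cells, 4 rose and 2 fell in WT and 4 rose and 1 fell in Lcn2-/- mice, while their summed level ranged from 16.39 to 16.77 over the control and from 15.93 to 16.37 over the CCl4 arrays. Pdgfrb, the platelet-derived growth factor receptor of stellate cells and fibroblasts, rose 3.27-fold in WT and 3.78-fold in Lcn2-/- mice. Of 7 myofibroblast markers, 2 rose in WT and 1 in Lcn2-/- mice, with Postn in both. Of 8 sinusoidal endothelial markers 1 rose and 2 fell in WT and 1 rose in Lcn2-/- mice, of 6 vascular endothelial markers 1 rose in each, of 5 cholangiocyte markers 1 rose in each, of 5 mesothelial markers 3 and 1 rose, and of 6 macrophage markers 2 rose in each and 1 fell in WT. The part of cell numbers in the collagen responses was not tested.

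Lcn2 itself ranged from 13.79 to 17.57 in WT control, 14.22 to 16.48 in WT CCl4, 10.47 to 11.53 in Lcn2-/- control and 10.61 to 12.25 in Lcn2-/- CCl4 mice, so that every knockout array was below every WT array. Between 51.6% and 60.9% of the spots of an array were well above background.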

How the data were processed

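Scanner files of 16 arrays were used, 1 per mouse. The authors labelled the RNA with Cy3 and extracted spot values with the scanner's software (Feature Extraction 10.7.3.1), and each deposited file holds intensity values on a linear scale that are not normalized between arrays. A second deposited file gives the authors' own log2 values per probe and array; between 99.8% and 99.9% of its values lay within 0.05 of the quantile normalized log2 of median signal minus median local background, and it served as an alternative.

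The log2 processed signal of 59305 gene spots was quantile normalized over the 16 arrays, outlier spots were removed and the spots of a probe averaged. A probe was kept if 3 or more arrays showed it well above background (33014 probes), and the brightest per gene symbol was tested (24357 genes). Differences were fitted with limma 3.58.1 in R 4.3.3, 1 model over 4 groups, with Benjamini-Hochberg adjustment within each of 5 contrasts and 95% intervals. The fit was tested on simulated data. Accessions were paired with symbols through RefSeq (GRCm38.p6) for 49.8% of the spots; probe positions are on mm9, and whether a probe lies in a UTR was not analysed here. The labels name samples as replicates without further detail, so p-values measure the spread between these samples. Precision is limited by how many arrays there are.

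The genes named are the 10 collagens, up to 3 of the largest calls per list and contrast, and 5 genes of like profile; Nid1, Pdgfrb, Postn, Col4a4, Col7a1, Eln, the genotype values of list genes in controls, Lamb1 in WT mice, and the values of Col4a6 by mouse were added after their values were seen. The members and all lists were chosen with earlier results of these data known. The ratios of chains and their permutation tests were added after the data were seen, for the pairs among Col4a1, Col4a2 and Col4a5 and the pair of Col6a1 and Col6a2; other chains of these types were not used. Replicate numbers equal the column of the slide for the controls, and the deviations of the same-numbered WT and Lcn2-/- control arrays correlated at 0.23, 0.37 and 0.55 over 24357 genes, which was taken as pairing there; in the other comparisons at least 1 pair was under 0.1. On slide 2, WT CCl4 2 to 5 and Lcn2-/- CCl4 1 to 4 both lay in columns 1 to 4, so replicate numbers do not match columns. In those column pairs the Lcn2-/- mouse was lower each time for Col4a1, Col4a5, Col6a1, Col6a2 and Col14a1. It was not lower each time for Col4a2, Col8a1, Col15a1 and Col18a1. The share of all genes that were lower each time was not counted. In every such pair the Lcn2-/- mouse was in the lower row, so genotype and row cannot be told apart there. Pairing by column was not tested for the CCl4 mice. Alternatives were other scalings, background correction, the authors' table, filters, probe averaging, array weights, slide, slide row and replicate blocks, single slides, 2-group fits and leaving out each array.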

Additional observations from a re-analysis of the deposited data

Results flagged for a closer look

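In 27 groups of 4 or 5 mice (9 collagens in 3 groups), 2 single mice lay far from their group; chance alone gives this in about 5% of groups. WT control 3 had a Col4a1 signal of 11.85 beside 10.95 to 11.03 in the other 3, a gap of 0.915 of the group's range. WT CCl4 1, the CCl4 array on slide 1, had a Col15a1 signal of 5.09 beside 6.04 to 6.32 in the other 4, a gap of 0.776 of the range.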

How the results depend on the processing

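Apart from the single-array fits, 542 values kept their direction and their side of the threshold, 18 reversed, 15 lost and 4 gained a call. With the slide as a block 3 collagens were called in WT and 3 in Lcn2-/- mice, and with slide 1 alone, where the CCl4 arm is 1 mouse assumed to vary like the controls, 3 in WT (2.89% of all genes). With array weights 2 were called between genotypes in controls, and Col8a1 gained a call in Lcn2-/- mice (0.99, adjusted p = 0.0236, limma). The Col4a2 call in WT was also lost without a filter (0.84, adjusted p = 0.0699, limma), with the row block (0.81, 0.0873) and with only the 2 groups compared (0.84, 0.0550), against 0.84 as reported. Such 2-group fits gained Col15a1 in WT (1.08, 0.0307) and lost Col14a1 in Lcn2-/- mice (1.19, 0.0736), at differences equal to those reported. A filter on all 16 arrays removes Col8a1 and Col15a1, which have no value there. The causes were not tested.

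The reversals were of values that had not passed the test. Col15a1 went to 0.83 (Lcn2-/- response) and -0.18 (genotype in controls) with array weights, to 0.47 and -0.035 with the mean over probes, and to 0.32 under CCl4 with the row block. Col18a1 went to -0.20 (Lcn2-/- response), 0.13 (genotype under CCl4) and 0.030 (genotype in controls) with percentile scaling, to 0.0067 (normexp), 0.017 (authors' table) and 0.010 (row block) in WT, to -0.018 (mean over probes) and -0.070 (slide block) in Lcn2-/- mice, and to 0.0052 between genotypes under CCl4 (row block). The interaction went to 0.043 for Col6a1 (percentile scaling) and 0.024 for Col6a2 (slide or row block), and the WT Col6a1 over Col6a2 ratio to -0.46 on slide 1.

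Leaving out each array gave 6 to 7 called in WT, 5 to 7 in Lcn2-/- mice and 0 to 0 in the other comparisons. In these fits 10.3% to 21.0% of all genes were called in WT and 6.91% to 13.1% in Lcn2-/- mice. The other comparisons had 0.0328% to 0.768%. Ranges that cross 0 were, for Col15a1, -1.04 to 0.61 (Lcn2-/- response) and -0.084 to 1.56 (genotype in controls). For Col18a1 they were -0.039 to 0.015 (WT), -0.046 to 0.10 (Lcn2-/-), -0.13 to 0.018 (genotype under CCl4) and -0.039 to 0.11 (interaction). They were -0.28 to 0.19 for Col4a2 under CCl4 and -0.16 to 0.48 for Col8a1 in controls. For the interaction they were -0.16 to 0.49 (Col14a1), -0.27 to 0.097 (Col6a1) and -0.23 to 0.14 (Col6a2). The genotype ratios ranged from -0.31 to 0.12 (Col4a1 over Col4a5, controls), -0.17 to 0.040 (under CCl4), -0.037 to 0.23 (Col4a2 over Col4a5, controls), -0.0038 to 0.31 (under CCl4) and -0.12 to 0.42 (Col6a1 over Col6a2, controls), and the Col6a1 over Col6a2 responses from -0.092 to 0.14 (WT) and -0.26 to 0.27 (Lcn2-/-).

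With the replicate number as a block, 7 collagens were called in WT (15.5% of all genes) and 6 in Lcn2-/- mice (12.2%), 0 between genotypes (0.378% under CCl4 and in controls) and 0 in the interaction (0.0246%), and no call changed. The numbers of the WT CCl4 mice, which enter this fit, do not match the slide columns. The unchanged calls are therefore no test of array position or pairing. In controls, Col4a1 was lower by 0.99 in this fit (adjusted p = 0.119, limma), Col4a2 by 0.76 (0.166) and Col4a5 by 0.76 (0.230). Although the numbers were taken as pairs in the controls, the block was shared with the CCl4 mice. These values are thus not differences of the control pairs alone, which were not fitted separately.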
